A study of Homo sapiens with 2 samples.

Results

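Binding of YBX1 to the mRNAs of other mRNA-binding proteins was examined in the PAR-CLIP data from HEK293, a human embryonic kidney cell line. The set comprises 43 genes of mRNA-binding proteins listed apart from the splicing factors, although some of them, such as QKI, also control splicing. These genes were listed by name, and a site was assigned to a member when its midpoint lay within the GENCODE span of the gene on the strand of the site. Of 2054 listed sites in all, 28 lay in members, and 16 of the 43 members held at least 1 site. The experiment has 1 group of 2 replicates, which the authors pooled into a single list, so no comparison of conditions and no spread between replicates can be given. Per the methods, FLAG/HA-tagged YBX1 was stably overexpressed in the T-REx HEK293 Flp-In line and pulled down through FLAG, whereas the labels name the YBX1 antibody D2A11. The list gives positions but no read counts or scores, so the depth behind each site is unknown, and the absence of a site from the list does not show that a gene was not bound. The level of each mRNA in these cells is not in the file either, and its part in which genes held sites was not tested.

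YBX1 is a cold-shock domain protein that coats mRNAs in the cytoplasm and takes part in their storage, translation and decay. Many of the members are proteins of the same layer of control. However, 7 were grouped by hand as mainly nuclear, and PABPN1 is nuclear too. Among the members are proteins that bind poly(A) tails, short elements of the 3′UTR or double-stranded stretches. Others recruit the machinery that shortens tails and silences mRNAs. Many mRNA-binding proteins are known to bind the mRNAs of other such proteins, or their own. In PAR-CLIP, the uridine analogue 4-thiouridine crosslinks bound RNA to the protein, and RNase T1, which cuts after G, trims the RNA to a short fragment.

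Given here are the sequences of the sites in SERBP1 and QKI, the members with the most sites. Those in PCBP1 and PCBP2, the poly(C)-binding proteins among the members, and in 2 further members, PABPC4 and RBM3, are also given. They are written 5′ to 3′ on the RNA strand with T for U, from GRCh38, and capitals mark the tetramers CATC, CACC and CAAC. Only SERBP1 site 1 among them holds no tetramer, whereas 20 of the 27 member sites in 3′UTRs or coding exons held at least 1. The sequences given here therefore do not stand for all member sites.
SERBP1 site 1 (chr1:67411468-67411488, minus strand): ttttatatttacacacatacg
SERBP1 site 2 (chr1:67411265-67411289, minus strand): ctactcaaaacaCAACttctcagtg
SERBP1 site 3 (chr1:67410482-67410497, minus strand): CACCatataCATCtag
SERBP1 site 4 (chr1:67408865-67408892, minus strand): catactttaCACCtctatataatcaaag
QKI site 1 (chr6:163563631-163563650, plus strand): tttaatctataCACCctatg
QKI site 2 (chr6:163570842-163570865, plus strand): tcttacCATCtaaccaaacaaaag
QKI site 3 (chr6:163571427-163571452, plus strand): ctttattttaCACCtaaaaaaatatg
QKI site 4 (chr6:163572502-163572527, plus strand): catataaatactCAACcacatttcag
PCBP1 site 1 (chr2:70088570-70088590, plus strand): CATCtactcaaacCACCcatg
PCBP1 site 2 (chr2:70088921-70088943, plus strand): tttctacaCAACtttatCATCcg
PCBP2 site 1 (chr12:53455947-53455969, plus strand): acccactaatgcCATCttcaaag
PCBP2 site 2 (chr12:53461089-53461108, plus strand): cattccacaatcCATCattg
PABPC4 site 1 (chr1:39564738-39564761, minus strand): cctccatattataCACCtaaccag
RBM3 site 1 (chrX:48575607-48575629, plus strand): tttCATCACCttCACCAACccag
The sites were 16 to 29 nt wide, with a median of 22.5 nt (n = 28), against a median of 22 nt over all 2054 sites. All of them held at least 1 T, with a median of 7. As T is the base that can crosslink in this method, a T in each site restates the method. The sites printed here are rich in A, C and T. So are the sites in 3′UTRs and coding exons over all genes, where G made up 5.84% of bases.

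Of the 43 members, 16 held a site, which is 37.2% (Wilson 95% interval 24.4 to 52.1). Of all 19527 protein-coding genes with a 3′UTR, 1347 held one by the same rule, 6.90%. With 2 sites or more there were 8 members, 18.6% (9.74 to 32.6), against 293 of all genes, 1.50%. The members were chosen with results of these data known, so these shares are a description and were not tested. The intervals cover counting error only. SERBP1 and QKI held 4 sites each, IGF2BP1, ZFP36L2, CNOT1, PCBP1, PCBP2 and MATR3 held 2 each, and PABPC4, PABPN1, FXR1, PUM2, LARP1, AGO2, TARDBP and RBM3 held 1 each. Among all protein-coding genes, 43 held 4 sites or more. A count of 4 has an exact Poisson 95% interval of 1.09 to 10.2 and a count of 2 one of 0.242 to 7.22, so the order of members with 1, 2 and 4 sites is not resolved.

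**Figure D1:**
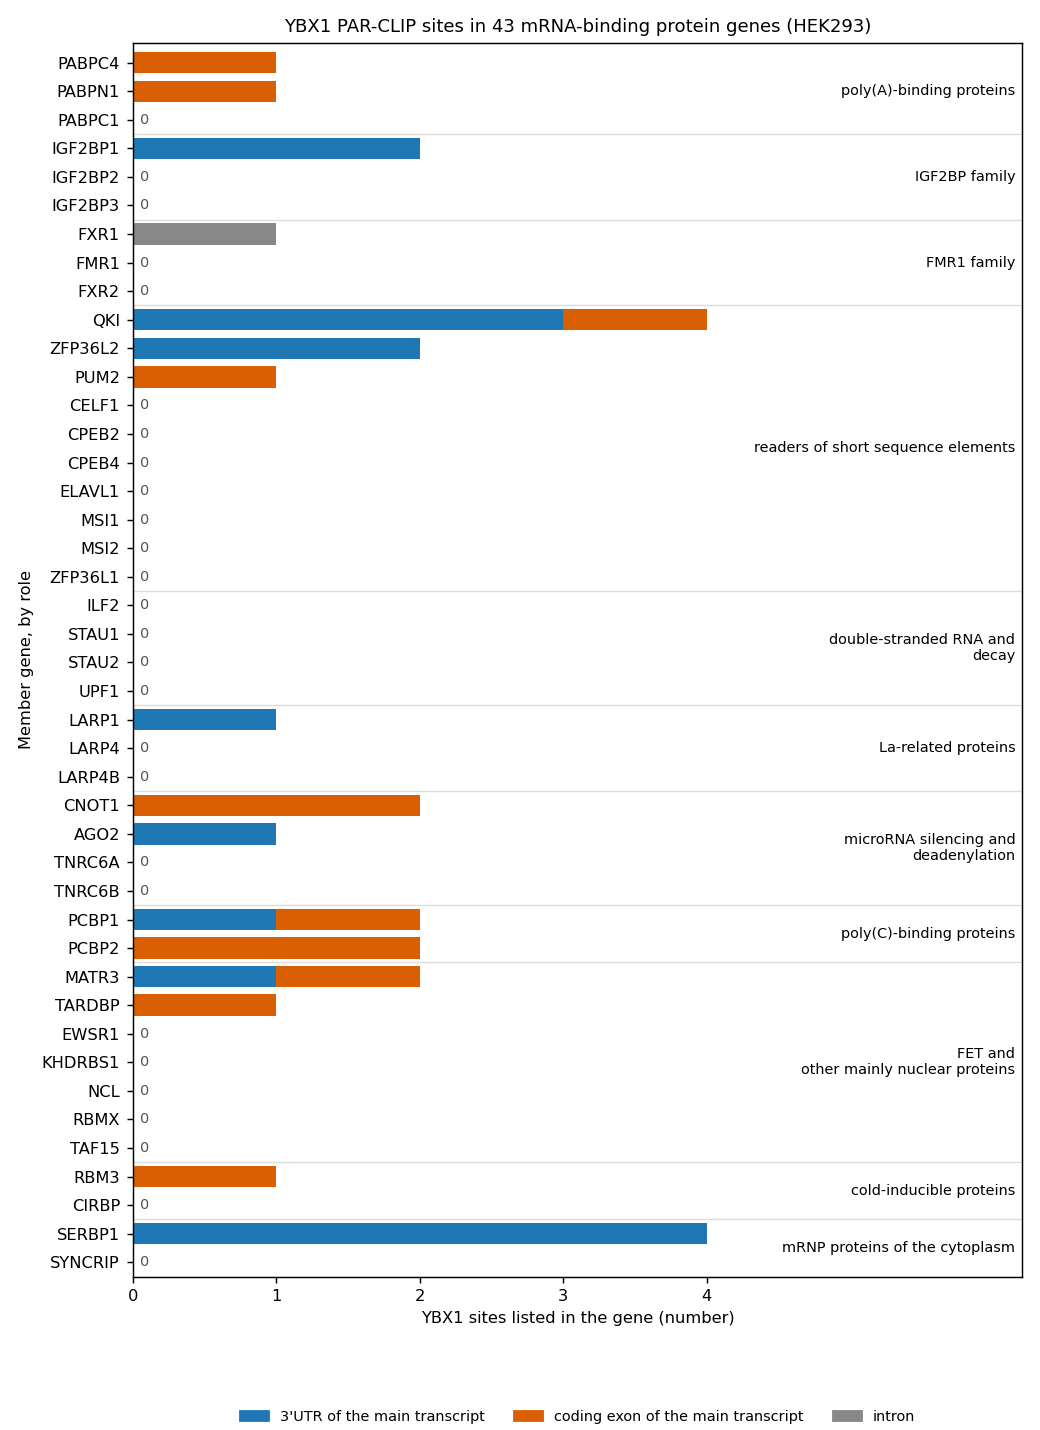
Number of listed YBX1 sites in each of the 43 members, grouped by role, with bars coloured by where the site lies in 1 transcript per gene. SERBP1 and QKI reach 4 sites, and 27 members are at 0.

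By role, the members differed in how many held a site. Both poly(C)-binding proteins among the members did, with 2 sites each, while other genes of their family, counted among the relatives below, held none. A noncoding gene without a name, ENSG00000257379, also covers both PCBP2 sites on the same strand. Sites were also listed in PABPC4 and PABPN1 among the 3 poly(A)-binding proteins, where PABPC1, the main cytoplasmic one, had none. In the IGF2BP family, which stabilises target mRNAs, only IGF2BP1 of 3 members held sites. In the family of FMR1, the translational repressor lost in fragile X syndrome, only FXR1 of 3 did. Of 10 readers of short sequence elements, 3 held 7 sites in all, namely QKI, PUM2 and ZFP36L2, and MSI1, MSI2, ELAVL1, CELF1, CPEB2, CPEB4 and ZFP36L1 had none. Of the 3 La-related proteins, LARP1, which controls mRNAs of the translation machinery, held 1 site. Among the genes of microRNA silencing and deadenylation, AGO2 held 1 and CNOT1, the scaffold of the CCR4-NOT deadenylase, held 2, while TNRC6A and TNRC6B had none. Of 7 mainly nuclear proteins, MATR3 held 2 sites and TARDBP 1, and EWSR1, TAF15, NCL, KHDRBS1 and RBMX had none. RBM3 of the 2 cold-inducible proteins and SERBP1 of the pair SERBP1 and SYNCRIP held sites, and CIRBP and SYNCRIP did not. No site was listed in STAU1, STAU2, UPF1 or ILF2, which were grouped by hand as proteins of double-stranded RNA and decay, though other members such as ZFP36L2 and CNOT1 also act in decay. These groups hold 2 to 10 genes each, and no difference between them was tested.

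SERBP1, which encodes an mRNA-binding protein found on ribosomes (chromosome 1, gene from 67407810 to 67430415), held its 4 sites in the 3′UTR of 5397 nt. Counted from the stop codon, they began at nt 1719, 1918, 2710 and 4315. The gaps between their first bases were 199, 792 and 1605 nt, so the stretch next to the stop codon and the last 1055 nt held none. This is 0.741 sites per kb of 3′UTR, against a median of 0.456 over the 745 genes with at least 1 site in the 3′UTR of their main transcript. The shortest of all member sites was the third one, at 16 nt, and it held both CACC and CATC.

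QKI encodes a protein of the STAR family that binds ACTAA-like elements and controls splicing, stability and translation (chromosome 6, gene from 163414000 to 163578592). Its 4 sites lay around the stop codon, in the first part of a 3′UTR of 7882 nt. One began at nt 846 of the coding sequence of 1026 nt. The others began at nt 132, 717 and 1792 of the 3′UTR, that is within its first 22.7%, and the remaining 6065 nt held none. The density in the 3′UTR was 0.381 sites per kb. The QKI site nearest the stop codon is in the 3′UTR of 2 protein-coding transcripts, and the following ones of 1 each, so QKI isoforms with other ends do not all carry them.

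Sites in 3′UTRs were also found in IGF2BP1, ZFP36L2, LARP1, AGO2, PCBP1 and MATR3. In IGF2BP1 (chromosome 17) they began at nt 1320 and 4549 of 6701 nt. ZFP36L2, which binds AU-rich elements and promotes decay (chromosome 2), had a pair 147 nt apart, at nt 1292 and 1439 of 1917 nt, or 1.04 sites per kb. The LARP1 site (chromosome 5, 154816763 to 154816782) began at nt 2667 of 3509 nt. Its sequence occurs again on chromosome 15 (100213689 to 100213708), where GENCODE has no gene on that strand, and it was the only member site with a second exact copy (1 of 28, against 167 of 2054 sites). PCBP1, an intronless gene (chromosome 2), held a site at nt 107 of a 3′UTR of only 389 nt. In MATR3, which encodes a nuclear matrix protein (chromosome 5), the site began at nt 1094 of 2282 nt. Over the 15 member sites in the 3′UTR of the main transcript, the median position was at 47.9% of the way from the stop codon (1.67 to 80.0). Over all genes it was 41.8%, from 975 positions. By midpoint, 955 distinct sites lay in such 3′UTRs, so the 975 positions are not a count of distinct sites.

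AGO2, the Argonaute protein that cleaves RNA targets (chromosome 8), has the longest 3′UTR of the members with a site, 11888 nt. Its site (140523524 to 140523544) began at nt 8500, which gives 0.0841 sites per kb. The authors' annotation lists this site as intergenic and with no gene name.

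**Figure D2:**
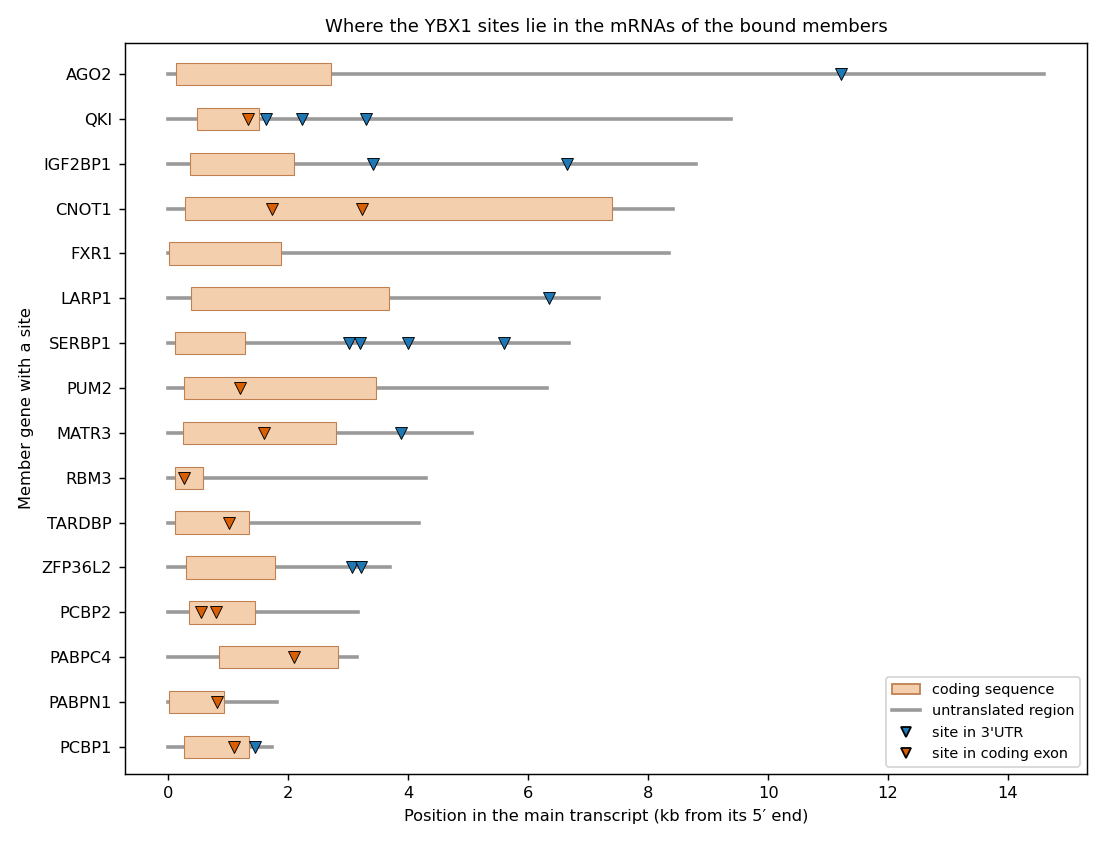
Main transcripts of the 16 members with a site, drawn to scale in kb from the 5′ end, with boxes for coding sequence, lines for untranslated regions and triangles for the first base of each site (blue in 3′UTRs, orange in coding exons). The SERBP1 sites spread over its 3′UTR, the QKI sites gather around the stop codon, and FXR1 has no triangle because its site lies in an intron.

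In the main transcript, 12 of the 28 sites lay in coding exons, in 10 members. PCBP1, PCBP2, PABPC4, PABPN1, PUM2, CNOT1, TARDBP, MATR3, RBM3 and QKI were these genes. RBM3, a small protein induced by mild cold, had its site at nt 150 of a coding sequence of 474 nt, and this site held all 3 tetramers. In CNOT1 (chromosome 16) the sites began at nt 1462 and 2947 of 7131 nt (58578799 to 58578821 and 58553785 to 58553805). They carry the names of the small nucleolar RNA genes SNORA76A and SNORA46 in the authors' gene column, but lie in coding exons of CNOT1. GENCODE has no other gene on that strand at either place. PABPN1, the nuclear poly(A)-binding protein (chromosome 14), held its site at nt 801 of 921 nt (23324209 to 23324232), in an exon shared with the readthrough gene BCL2L2-PABPN1, which the authors name. TARDBP encodes the RNA-binding protein TDP-43. MATR3 had its coding site at nt 1355 of 2544 nt, and PABPC4 at nt 1258 of 1983 nt.

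FXR1, a relative of FMR1 that controls translation (chromosome 3), held the only intronic site (180963585 to 180963606). It lies 495 nt from the nearest annotated exon. It was also the only member site that did not end in G. In FMR1 itself 1 site lay inside the gene span but on the other strand (chromosome X, 147943205 to 147943223), where GENCODE has no gene. The authors' column names FMR1 for it, and by the strand rule it was not counted.

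Of the 28 member sites, 19 lay in a 3′UTR of some transcript, 67.9% (Wilson 95% interval 49.3 to 82.1), against 1137 of all 2054 sites, 55.4% (53.2 to 57.5). A further 8 lay in coding exons only, 28.6% (15.3 to 47.1), against 23.6% (21.8 to 25.4). With 1 transcript per gene, 15 member sites were in 3′UTRs, 53.6% (35.8 to 70.5), against 46.5% (44.3 to 48.7) of all sites. The difference came from 4 sites, 1 each in PABPC4, QKI, PCBP2 and TARDBP. Each of these is coding in the main transcript and lies beyond the stop codon in 1 transcript marked for nonsense-mediated decay, in which an early stop turns later exons into 3′UTR. In the authors' annotation 14 member sites were in 3′UTRs, 50% (32.6 to 67.4), against 35.3% (33.3 to 37.4), and 10 in exons, 35.7%, against 27.4%. No test was made, since several sites share a gene. Under each of these 3 annotations the interval of the members overlapped that of all sites. These intervals treat sites as independent, so they can be too narrow where sites share a gene. The member sites are also among the 2054.

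**Figure D3:**
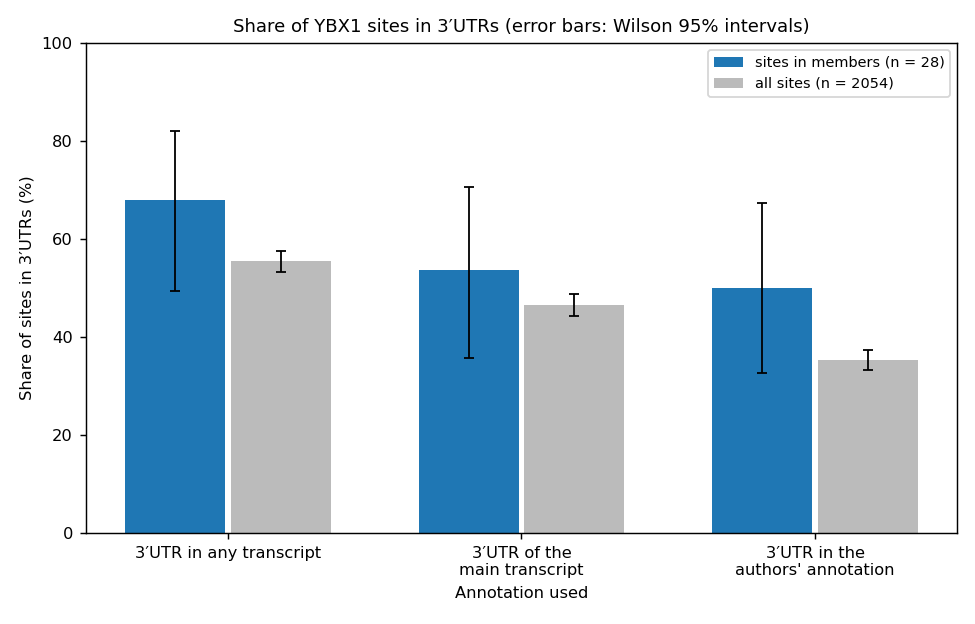
Share of sites in 3′UTRs in percent under 3 annotations, for the 28 sites in members and for all 2054 sites, with Wilson 95% intervals as error bars. The member shares run from 50% to 67.9%, and those of all sites from 35.3% to 55.4%.

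Members with a site had 3′UTRs of 320 to 11888 nt with a median of 2843 nt (n = 16). Those without had 297 to 12567 nt with a median of 1871 nt (n = 27), so the ranges overlapped almost fully. Among all protein-coding genes, the medians were 2044 nt with a site (n = 1347) and 1005 nt without (n = 18180). TNRC6B, an Argonaute partner, has the longest 3′UTR of the 43 members, 12567 nt, and no listed site, and CELF1 (6293 nt), CPEB4 (5843 nt), MSI2 (5172 nt), ELAVL1 (4910 nt), LARP4 (4140 nt), CPEB2 (3771 nt) and LARP4B (3429 nt) also exceeded the median of the members with sites. PCBP1 (389 nt) and PABPC4 (320 nt) had the shortest 3′UTRs among members with sites, and held 2 sites and 1 over the whole mRNA. The median coding length was 1610 nt with a site and 1800 nt without.

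**Figure D4:**
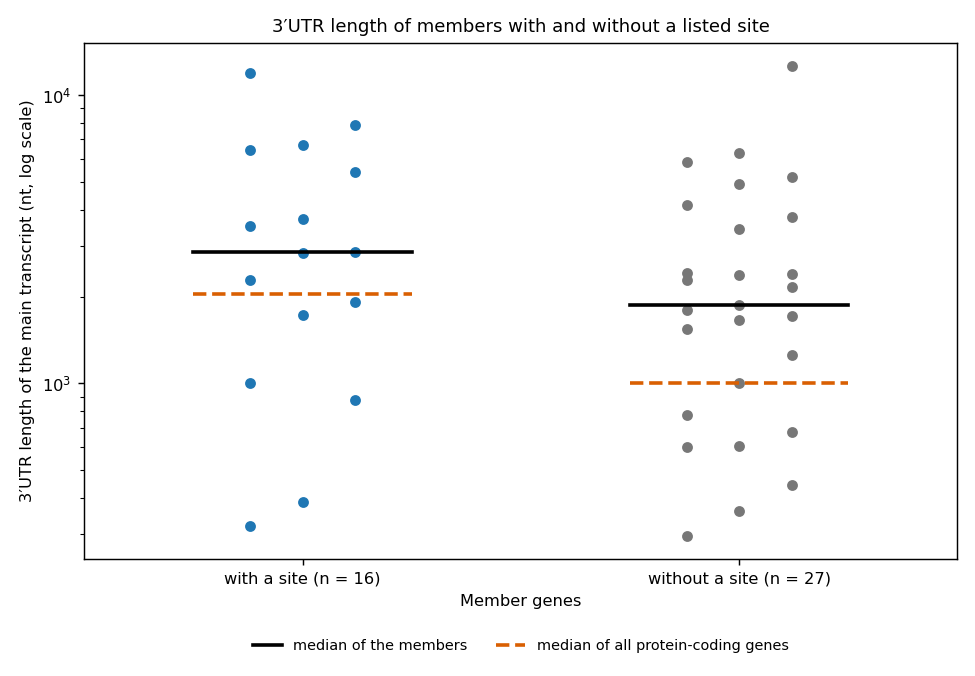
3′UTR length in nt on a log scale for the 16 members with a site and the 27 without, 1 point per gene, with the median of the members (black line) and of all protein-coding genes in the same class (dashed line). Points of both classes cover nearly the same range.

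PUM2 is a Pumilio protein, a family that binds UGUA elements in 3′UTRs and represses its targets. Its site lay in coding sequence at nt 925 of 3195 nt, and is shown because it is the only site of this member and holds none of the tetramers.
PUM2 site 1 (chr2:20297618-20297637, minus strand): ccaaatccatacattattag
After the values were seen, coding sites of some members were set against the same place of a related member, through an alignment of both proteins. PABPC1 had no listed site where PABPC4 did, with 17 of 24 bases identical. PCBP1 had none at the place of either PCBP2 site, with 19 of 23 and 12 of 20 bases identical. CIRBP had none where RBM3 did, with 13 of 23 bases identical. Differences between related members in whether a site was listed were not tested.

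Close relatives of the members, listed from the same families and complexes, held sites in 5 of 42 genes, 11.9% (Wilson 95% interval 5.19 to 25). The share over all 19527 protein-coding genes with a 3′UTR, 6.90%, lies within this interval. CNOT7 and CNOT8, the alternative catalytic subunits of the CCR4-NOT deadenylase, held 2 and 1 in their 3′UTRs, at nt 1401 and 5577 of 5754 nt and at nt 274 of 1353 nt. The sequence of the first CNOT7 site occurs at 2 places in the genome. In the authors' annotation this site is at a transcript end and the second is intergenic, both under the name CNOT7. HNRNPR, the closest relative of SYNCRIP, held 1 coding site. No site was listed in the other 37 relatives.

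Of the 27 member sites in 3′UTRs or coding exons, 20 held at least 1 of CATC, CACC and CAAC, 74.1% (Wilson 95% interval 55.3 to 86.8), against 911 of 1619 such sites of all genes, 56.3% (53.8 to 58.7). CACC was in 10 of them, 37.0% (21.5 to 55.8), against 14.9% (13.3 to 16.8) of all such sites. CATC was in 9, 33.3% (18.6 to 52.2), against 27.8%, and CAAC in 8, 29.6% (15.9 to 48.5), against 29.3%. Windows as wide as the site, placed 100 nt away in its exon, could be set for 19 of the 27 sites. CACC was in 0 of these 19 (interval up to 16.8%), CATC in 2 and CAAC in 2. Over all genes these tetramers were in 7.20%, 5.80% and 6.39% of 1362 windows. None of the tetramers holds a G, and G made up 6.5% of bases in the members' sites and 19.3% in their windows. The windows are thus not matched to the sites in G, and its part in these counts was not tested. The exonic member sites with none of the tetramers included both of IGF2BP1, the first of SERBP1, the second of MATR3 and those of PUM2 and AGO2. The search used the RNA strand only, and the tetramers can overlap by a base, as in RBM3. Among the sites with CACC, those in the 3′UTR of the main transcript were in QKI and SERBP1 only, and the rest were coding. Several sites share a gene and the members were chosen with results of these data known, so no test was made. A tetramer in a site is a description of its letters.

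RNase T1 cuts after G, and the last base of a site was set by where that G lies, so the 27 of 27 exonic member sites that ended in G (95% of the 1619 sites of all genes) restate this choice. The base just before the site was G in 24 of the 27, 88.9%, against 87.3% over all genes. With the last base included, G made up 6.5% of bases in the members' sites and 19.3% in their windows, and the part of the enzyme in this was not tested. C made up 28.3% of bases in these sites and 20.5% in the windows, and A 34.3% and 28.9%. Over all genes C was at 29.3% and A at 33.0% in the sites.

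Elements bound by some of the members themselves were searched on the RNA strand within 50 nt of each site in the same exon. ATTTA, the core of the AU-rich elements that ELAVL1 and the ZFP36 family bind, was near 8 of 27 member sites, 29.6% (Wilson 95% interval 15.9 to 48.5), against 20.7% (18.8 to 22.8) of 1617 sites of all genes. The 8 were both sites of IGF2BP1 and MATR3, 1 site each of CNOT1, PCBP1 and SERBP1, and that of AGO2. The QKI element ACTAA was near 1 of 27 member sites, in PCBP2, 3.7% (0.657 to 18.3), against 13.8% (12.2 to 15.6) of all. It was near none of the QKI sites. The Pumilio element TGTANATA was near 0 of 27 (interval up to 12.5%), against 2.35%. These counts concern letters in short windows and say nothing of whether those proteins bind there.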

How the data were processed

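The authors made 2 PAR-CLIP libraries for YBX1 from HEK293 cells. Adapters were removed with cutadapt 1.4.1, PARA-suite was used for alignment to GRCh38 and a transcriptome, BMix for calling clusters by strand, and HOMER for annotation. The deposited file holds positions, gene names and annotation, pooled over both replicates and with no counts or scores, so no test between samples was possible and depth per sample is unknown. The members and lists were chosen with earlier results of these data known.

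A site was taken to run from the listed start, counted from 1, to the base before the listed end, since the G left by RNase T1 lies there on both strands. Genes, spans and regions came from GENCODE release 44 on GRCh38. The main transcript was the MANE Select one, or else the canonical one. Coding lengths include the stop codon. Where MATR3 has 2 gene entries, the one with a MANE Select transcript was used. A 3′UTR in any transcript took precedence over coding exons, 5′UTRs, noncoding exons and introns. The role groups and the list of relatives were made by hand.

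Shares carry Wilson 95% intervals (scipy 1.17.1). Exact copies of each site were searched on both strands of the chromosomes. Proteins translated from the coding sequences were aligned with biopython 1.88 (BLOSUM62). Base content was computed for sites of at most 100 nt. All members may be named, relatives where they held a site (some are not reported here), and other genes only where a member's site also matches them. The small nucleolar RNA names from the authors' column were added after the values were seen. Alternatives were any overlap, no regard to strand, the authors' gene names, exons only, wider sites, unique sequences, merged sites, other orders of classes and other windows. Leaving out transcripts marked for nonsense-mediated decay, and site width with unique sequences only, were added after seeing the data. The placement of sites and the search for copies were tested on simulated data.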

Additional observations from a re-analysis of the deposited data

How the results depend on the processing

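Over any overlap, strand ignored, the authors' gene names, exons only, unique sequences and merged sites, 14 to 17 members held 25 to 29 sites, against 16 and 28 as reported. Only sites wider than the median of 22 nt left 10 members and 14 sites, and CAAC was then in 50% of them, against 28.6% of all 28. In windows 100 nt away, set for 19 of the sites only, CATC was in 10.5%, CACC in 0% and CAAC in 10.5%. In the 28 sites, with the intronic one included, the shares were 35.7%, 35.7% and 28.6%. The share of sites in 3′UTRs ran from 50% to 76.0%, with 53.6% when coding exons came first, with 1 transcript per gene or without transcripts marked for nonsense-mediated decay. With the longest 3′UTR over transcripts, the medians were 2866 nt with a site and 2328 nt without. Replicates were pooled by the authors, so none could be left out, and the number of sites limits every share.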

Other observations

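The run TACACC, which holds the tetramer CACC, was noticed when the printed sequences were set side by side. It was in 4 of the 27 exonic member sites, 14.8% (Wilson 95% interval 5.92 to 32.5), against 29 of 1619 such sites of all genes, 1.79% (1.25 to 2.56). The 4 were QKI sites 1 and 3, SERBP1 site 4 and the site of PABPC4, of which QKI site 1 and PABPC4 lie in coding sequence. The run was picked from these same sites, so the values have no test and are a description.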
